A study of Octopus bimaculoides with 95 samples.

Results

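Sp12 and Sp38 are a pair of named entries in the expression tables of the octopus Octopus bimaculoides. They were taken by their names, each has 1 row in each of the 2 tables, and together they are 2 of the 17545 genes of the larger table. The rule of choice used the names and no cut on expression values, but earlier results of these data were known when it was made. The working name of the pair calls them secreted proteins, but the tables give only the short names, with no product, position or sequence. The meaning of the names was therefore not checked, and the entries are called Sp12 and Sp38 throughout.

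RNA was sequenced from 95 libraries of the octopus nervous system and of other organs, with no treatment and no mutant. The larger table, called the plate table, has 51 neural libraries (21 tissues) and 34 non-neural libraries (25 tissues). Of the neural tissues, 15 have 3 libraries each and 6 have 1. They are the medial part and the left and right lateral and mediolateral parts of the vertical lobe, 6 other central lobes (inferior frontal, superior frontal, subvertical, dorsal basal, anterior superior buccal, and the remaining basal and subfrontal lobes as 1 tissue), the deep medulla and the plexiform periphery of the optic lobe, the stellate ganglion and the arm cord near the brachial crown. The 6 with 1 library are the anterior, middle and posterior subesophageal lobe, the inferior buccal ganglion, the olfactory lobe and the arm cord near its tip. Classed here as non-neural are 3 libraries each of the retina and of the branchial heart auricle and ventricle, 2 each of the chromatophores and the anterior and posterior salivary gland, and 1 each of 19 other tissues. A second table has 5 libraries of whole neural tissue and 5 of single neurons. The labels leave it unsaid whether libraries of a tissue came from separate animals, so p-values measure the spread between libraries or between tissue means, which may be partly technical. Strain, age and sex of the animals were not used here.

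The octopus brain is a ring of lobes around the esophagus, flanked by a pair of large optic lobes and joined to ganglia and nerve cords in the body and arms. The vertical lobe is known for learning and memory, the frontal lobes for visual and touch input to it, the optic lobes for vision, the stellate ganglion for the motor control of the mantle, and the arm cords for the control of the arms. Secreted proteins carry a signal peptide, pass through the secretory pathway and are released from the cell, and in nervous tissue many of them are precursors of neuropeptides.

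Levels are given in TPM, a measure of transcript abundance that is scaled by gene length and by a fixed total per library, so that the 2 genes can be compared. Spike-in RNA, synthetic RNA added to a sample, took 1.27% to 94.1% of a plate library and was removed before each library was rescaled to a fixed total. Because low TPM values were whole multiples of a step, the number of reads behind each value could be recovered. Plate libraries held 31932 to 12717246 reads over genes, and 29 of the 85 had fewer than 500000. A single read of Sp12 or Sp38 was worth 0.120 to 38.2 TPM, with a median of 0.889 TPM. A value of 0 allows a level of up to 3 reads in that library, called its 3-read level below, which covers counting error only. This level was 0.813 to 114 TPM in neural libraries at 0 for Sp12 and 5.92 to 115 TPM in those at 0 for Sp38.

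Each library was checked against its class with an index, its mean correlation over genes with the neural tissue means less that with the others, which is above 0 where a library is nearer to neural tissue. The index ran from -0.0600 to 0.169 in neural and from -0.0600 to 0.140 in non-neural libraries, and the sign went against the label in 2 of 51 and 9 of 34. Among neural labels, stellate ganglion 1 (-0.0600) and the right mediolateral vertical lobe 1 (-0.0279) did so. The libraries labelled chromatophores 1, optic gland and retina 3 gave 0.140, 0.0784 and 0.0725. These 5 libraries were kept under their labels, and the tests were also run without them. The other non-neural libraries with an index above 0, at 0.00643 to 0.0486, were not set apart. Sp12 stood at 0 TPM in both neural libraries set apart and at 6.70, 3.91 and 25.04 TPM in chromatophores 1, optic gland and retina 3. Sp38 stood at 0 TPM in right mediolateral vertical lobe 1, 0.820 TPM in stellate ganglion 1, 7.503 TPM in chromatophores 1, 523 TPM in optic gland and 0 TPM in retina 3.

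Both genes were higher in neural than in non-neural tissues. Sp12 was present in nearly every neural library at a moderate level, whereas Sp38 was very high in some neural libraries and at or near 0 in others. Of the 11 neural libraries at 0 for Sp38, 10 had fewer than 500000 reads. In the 29 neural libraries with at least 500000 reads, Sp12 had reads in 27 and Sp38 in 28. In bulk tissue, fewer cells of a type and less RNA per cell cannot be told apart.

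Reads of Sp12 were found in 45 of 51 neural libraries and in 18 of 34 non-neural libraries. Its median was 18.5 TPM in neural and 0.208 TPM in non-neural libraries, and it reached 10 TPM in 37 neural and 4 non-neural libraries. Its highest value was 1318 TPM in neural and 50.3 TPM in non-neural libraries. The mean was 62.8 ± 188 TPM in neural libraries (SD, n = 51) and 4.89 ± 10.7 TPM in non-neural libraries (SD, n = 34). The neural mean leaned on 1 inferior frontal library and was 37.7 TPM without it. The ranges of the classes overlapped. Over 21 neural and 25 non-neural tissue means, the difference in log2(TPM + 1) was 3.30 ± 0.42 (SE), with a Benjamini-Hochberg adjusted p of 1.9e-08 in limma. Of the 15094 genes tested, 19.0% were called higher in neural tissues by the same rule, an adjusted p under 0.05 and a difference of at least 1, and the median difference over all of them was 0.15.

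Reads of Sp38 were found in 40 of 51 neural libraries and in 25 of 34 non-neural libraries. Its median was 10.8 TPM in neural and 1.30 TPM in non-neural libraries. It reached 100 TPM in 12 neural and 3 non-neural libraries, and its highest value was 2376 TPM in neural and 523 TPM in non-neural libraries. The mean was 170 ± 412 TPM in neural libraries (SD, n = 51) and 27.1 ± 92.9 TPM in non-neural libraries (SD, n = 34). The non-neural mean was 12.1 TPM without the optic gland. The difference in log2(TPM + 1) was 2.76 ± 0.68 (SE), with an adjusted p of 0.00123 in limma, and here too the classes overlapped. By p-value Sp12 stood in place 207 and Sp38 in place 1936 among the 15094 genes.

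Both calls held within the 4-digit label style and among the deeper libraries. The plate labels carry several styles of sample code, and those with a 4-digit number cover 22 neural and 22 non-neural libraries. Within that style the difference was 3.52 for Sp12 (adjusted p 4.4e-05 in limma) and 3.40 for Sp38 (adjusted p 0.00705 in limma). In the 56 libraries with at least 500000 reads, a limit chosen after the values were seen, it was 3.27 for Sp12 (adjusted p 1.4e-07 in limma) and 3.48 for Sp38 (adjusted p 0.000390 in limma). The median difference over all genes was 0.42 there, against 0.15 with all libraries. Without the 5 libraries named above the difference was 3.53 for Sp12 (adjusted p 2.0e-09 in limma) and 3.142 for Sp38 (adjusted p 8.0e-05 in limma). These libraries were set apart with earlier results of these data known. The neural ones held 0 TPM of Sp12 and at most 0.820 TPM of Sp38, and the optic gland held 523 TPM of Sp38. Only retina 3, at 0 TPM of Sp38, goes the other way. A larger difference without them is thus partly built in and is no separate support. Several tissue means come from parts of the same organ, such as the parts of the vertical lobe, and were counted apart. With such parts merged, the difference was 3.31 for Sp12 (adjusted p 2.4e-05 in limma) and 2.83 for Sp38 (adjusted p 0.00810 in limma).

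**Figure D1:**
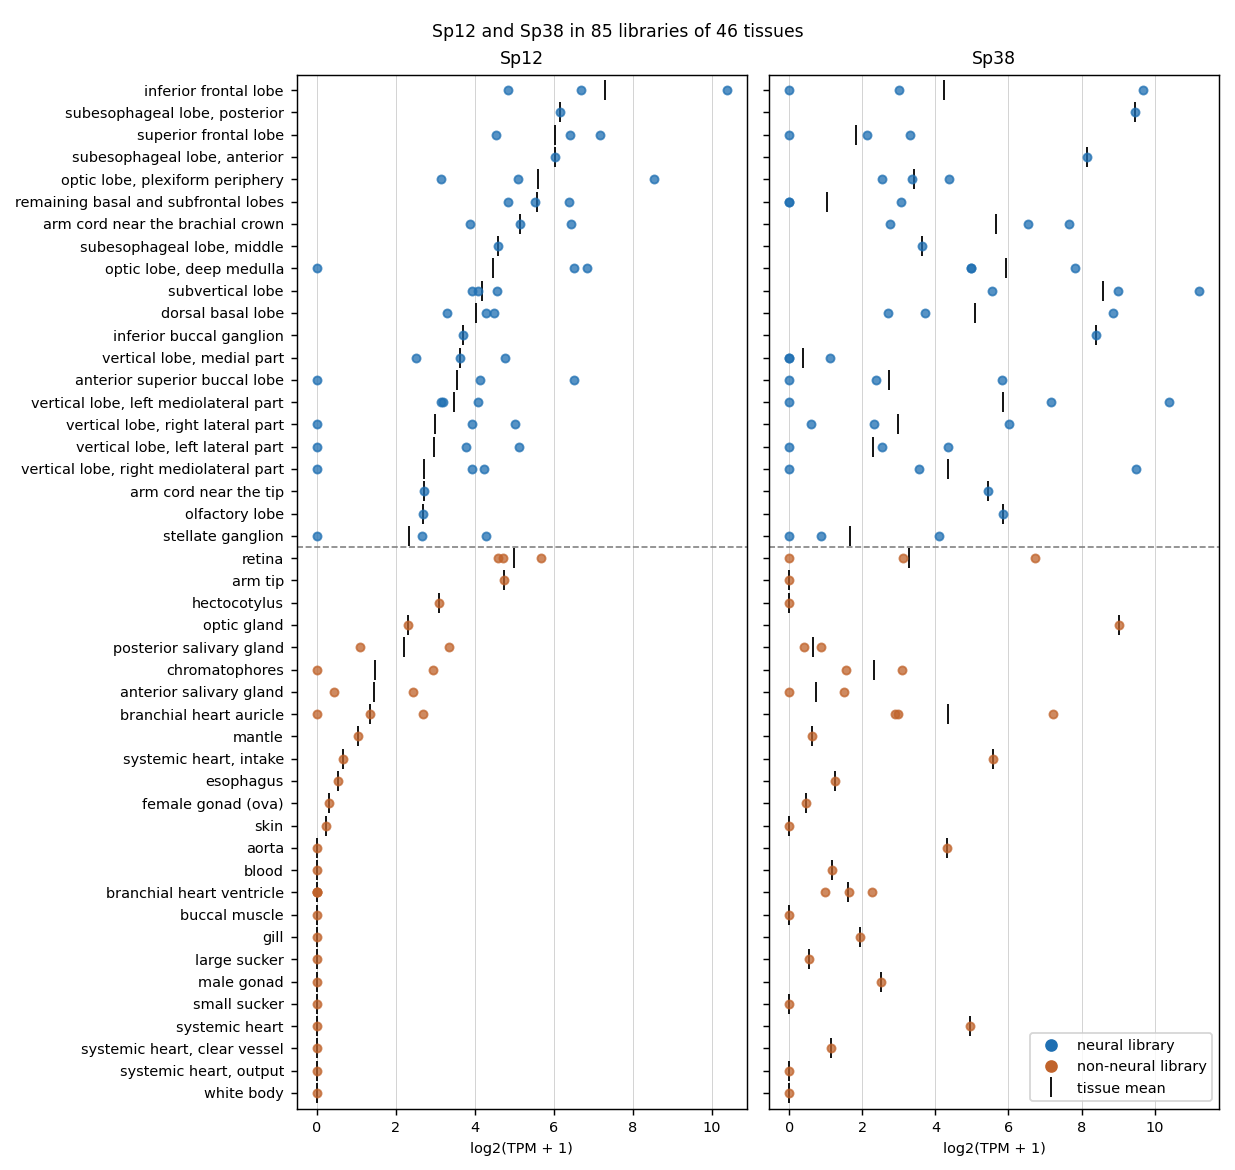
Level of Sp12 (left) and Sp38 (right) as log2(TPM + 1) in each of the 85 plate libraries, 1 point per library, with tissues in rows ordered by the mean of Sp12 within each class and a bar at the tissue mean. Neural tissues stand above the dashed line. Sp12 points lie above 0 in 45 of 51 neural libraries, while Sp38 points of a tissue can be spread over most of the axis, as in the left mediolateral vertical lobe (0 to 1354 TPM).

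Among neural tissues, Sp12 was highest on average in the inferior frontal lobe, a lobe of the touch memory system, where its 3 libraries held 1318, 101 and 27.4 TPM. The first of these rested on 79 reads in a library of 83973 reads, and the second on 381 reads in 4858730. The tissue mean was 482 TPM with the highest library and 64.4 TPM without it. All 3 libraries lay above the neural median.

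The superior frontal lobe followed with 22.3, 141 and 83.3 TPM of Sp12. The plexiform periphery of the optic lobe held 369, 32.96 and 7.75 TPM. The remaining basal and subfrontal lobes held 27.3, 44.7 and 82.6 TPM. These lobes had reads of Sp12 in every library, and the optic periphery had the widest range of them. The arm cord near the brachial crown held 13.7, 85.2 and 34.2 TPM. The deep medulla of the optic lobe held 0, 90.1 and 113 TPM, and in its first library 3 reads would be worth 18.1 TPM. That 0 thus allows a level close to the neural median of 18.5 TPM.

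Sp12 was most even in the subvertical lobe, the main target of vertical lobe output, with 15.9, 14.2 and 22.7 TPM. The dorsal basal lobe held 21.3, 8.76 and 18.5 TPM. On the log2(TPM + 1) scale the SD between libraries was 0.33 in the subvertical and 0.64 in the dorsal basal lobe, against 2.82 in the inferior frontal lobe. The anterior superior buccal lobe held 89.3, 16.6 and 0 TPM, the last with a 3-read level of 23.6 TPM.

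Every part of the vertical lobe had Sp12 at 0 to 33.4 TPM. The medial part held 4.64, 26.1 and 11.2 TPM. The left mediolateral part held 7.83, 8.06 and 16.0 TPM, and the right mediolateral part 0, 14.2 and 17.8 TPM. The left lateral part held 0, 33.4 and 12.7 TPM, and the right lateral part 0, 14.1 and 31.5 TPM. Of the 3 values at 0, those in the left lateral and right mediolateral parts came from libraries of 31932 and 84288 reads, where 3 reads would be worth 114 and 35.7 TPM. The value in the right lateral part came from a library of 663275 reads, with 3 reads worth 5.89 TPM. The stellate ganglion was lowest on average, with 0, 18.5 and 5.36 TPM, and its 0 came from the library labelled stellate ganglion 1, which held 5193692 reads and lay nearer to non-neural tissues.

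Of the neural tissues with 1 library, the posterior and anterior subesophageal lobe held Sp12 at 69.7 and 63.7 TPM. The middle subesophageal lobe held 22.8 TPM on 2 reads, the inferior buccal ganglion 11.9, the arm cord near its tip 5.51 and the olfactory lobe 5.39 TPM. All 6 had reads of Sp12, and these values have no replicate.

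Among the tissues with 3 libraries, Sp38 was highest on average in the subvertical lobe, at 507, 2376 and 45.7 TPM on 825, 3816 and 26 reads. The second library placed Sp38 at rank 42 of all genes. The 3 libraries spanned a 52.0-fold range, although each held 803778 reads or more. The same libraries gave the most even values of Sp12.

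In several tissues the libraries lay far apart in Sp38. The left mediolateral vertical lobe held 0, 143 and 1354 TPM, and the right mediolateral part 0, 715 and 10.8 TPM, with a 3-read level of 36.0 TPM at the 0. The inferior frontal lobe held 0, 6.98 and 815 TPM, with a 3-read level of 50.5 TPM at the 0, and the dorsal basal lobe, a higher motor lobe, 463, 5.52 and 12.1 TPM. The arm cord near the brachial crown held 91.8, 5.73 and 201 TPM. In 5 of the 15 neural tissues with 3 libraries, 1 library reached 100 TPM of Sp38 while another had 10 TPM or less, and this was so for Sp12 in 2 of 15. Counting as low only libraries whose 3-read level is itself 10 TPM or less, it was so for Sp38 in 3 tissues and for Sp12 in 1. These limits were chosen after the values were seen. In the left mediolateral part the library at 0 held 660020 reads, with 3 reads worth 5.92 TPM, so its level was far below the 1354 TPM of the third.

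The deep medulla had Sp38 in every library, at 30.4, 30.3 and 226 TPM, the first pair on 5 and 4 reads. The plexiform periphery held 4.84, 19.6 and 9.23 TPM. Neither part of the optic lobe had a library at 0.

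In the other 7 tissues no library reached 100 TPM of Sp38, but many of these libraries were too shallow to show a low level. The right lateral vertical lobe held 3.96, 0.507 and 63.5 TPM, the last on 4 reads, and the left lateral part held 0, 4.81 and 19.3 TPM, with a 3-read level of 115 TPM at the 0. The anterior superior buccal lobe held 0, 4.18 and 55.6 TPM, the last on 7 reads and the first with a 3-read level of 9.65 TPM. All of these values rested on 7 reads or fewer. The superior frontal lobe held 3.40, 8.91 and 0 TPM, with a 3-read level of 31.5 TPM at the 0. The stellate ganglion held 0.820, 0 and 16.2 TPM, with a 3-read level of 14.03 TPM at the 0. The remaining basal and subfrontal lobes held 7.35, 0 and 0 TPM, and the 3-read levels at 0 were 13.5 and 12.5 TPM. The medial vertical lobe had the lowest mean, with 1.17, 0 and 0 TPM, or 1 read in all, and 3-read levels of 19.8 and 17.0 TPM at 0. All values of these 4 tissues rested on 8 reads or fewer.

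Tissues with 1 library were often high in Sp38. The posterior subesophageal lobe held 702 TPM on 1699 reads, the inferior buccal ganglion 334 TPM on 1056 and the anterior subesophageal lobe 282 TPM on 417. The olfactory lobe held 56.4, the arm cord near its tip 42.1 and the middle subesophageal lobe 11.5 TPM, the last on 1 read. None of the 6 was at 0.

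Both genes varied more than most genes did, between libraries of the same tissue and also between tissue means. Over the 15 neural tissues with 3 libraries, the SD within tissues was 2.18 for Sp12 and 3.02 for Sp38 on the log2(TPM + 1) scale, larger than that of 94.998% and 99.7% of the 13755 genes in the fit, whose median was 1.26. The SD between tissue means was 1.41 for Sp12 and 2.23 for Sp38, with a median of 0.80 over genes. It was larger than that of 92.3% and 99.5% of these genes. When the 15 tissues were ordered by their mean, all 14 pairs of neighbours overlapped in their libraries for Sp12, and all 14 did for Sp38. In each of these pairs the difference of the means was smaller than the larger SD of the pair. Neighbours in an order by mean lie close by construction, so their overlap says nothing of tissues further apart. An F test over the 15 tissues gave an adjusted p of 0.557 for Sp12 and 0.295 for Sp38 in limma, and 5.07% of the genes tested passed it. The order of neural tissues given above is therefore a description of these libraries and not a ranking that the test bears out.

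The 5 parts of the vertical lobe were set against the 6 other central lobes. Sp12 had a median of 12.7 TPM (range 0 to 33.4) in 15 vertical lobe libraries and of 24.98 TPM (range 0 to 1318) in 18 libraries of other central lobes. The difference in log2(TPM + 1) was -1.96 ± 0.71 (SE), and it did not pass (adjusted p 0.115 in limma, unadjusted p 0.00854). Of all genes 4.24% were called in either direction. Sp38 had a median of 3.96 TPM (range 0 to 1354) in vertical lobe libraries and of 7.16 TPM (range 0 to 2376) in those of the other central lobes, and its difference of -0.74 ± 0.96 did not pass (adjusted p 0.763 in limma). Within the 4-digit label style alone, which leaves 18 libraries, the vertical lobe side was 1 library, right mediolateral vertical lobe 1. It was among those set apart and held 84288 reads, with both genes at 0. There 3 reads would be worth 35.7 TPM of Sp12 and 36.0 TPM of Sp38. The differences in that style were -4.45 for Sp12 and -5.06 for Sp38, with a median of -0.99 over all genes. They rest on that library, so nothing is concluded from them.

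The optic lobe minus the central lobes gave 0.19 ± 0.92 for Sp12 and 0.87 ± 1.25 for Sp38 (adjusted p 0.994 and 0.983 in limma, against 1.02% of genes called). The stellate ganglion and arm cord minus the central lobes gave -1.09 ± 0.92 for Sp12 and -0.15 ± 1.25 for Sp38 (adjusted p 0.652 and 0.975 in limma, against 3.49% called). The optic medulla minus the optic periphery gave -1.13 ± 1.65 for Sp12 and 2.50 ± 2.23 for Sp38 (adjusted p 1.00 for both in limma, against 0.116% called). The left minus the right side of the vertical lobe gave 0.37 ± 1.17 for Sp12 and 0.42 ± 1.58 for Sp38 (adjusted p 1.00 for both in limma); there 0 of 13755 genes were called, and 471 had an unadjusted p under 0.05. None of these differences passed, which does not show that the levels are alike, since the standard errors ran from 0.92 to 2.23.

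Each of 11 regions, with the vertical lobe taken as 1, was also set against the mean of the other 10, and 0 regions were called for Sp12 and 0 for Sp38 in limma. At an unadjusted p under 0.05, Sp12 had 3 regions and Sp38 had 1, and so did 3268 of 13755 genes for the vertical lobe, 1632 for the stellate ganglion, 1056 for the subvertical lobe and 805 for the inferior frontal lobe. For Sp12 these were the inferior frontal lobe (2.89 ± 1.22, adjusted p 0.720, 0.211% of genes called), the vertical lobe (-1.66 ± 0.64, adjusted p 0.0950, 8.73% called) and the stellate ganglion (-2.58 ± 1.22, adjusted p 0.383, 1.80% called). For Sp38 it was the subvertical lobe (5.11 ± 1.65, adjusted p 0.338, 0.167% called). For the other 7 regions the genes called made up 1.13% of all genes for the arm cord, 0.138% for the dorsal basal lobe, 0.269% for the optic medulla, 0.800% for the optic periphery, 0.0291% for the anterior superior buccal lobe, 0.509% for the superior frontal lobe and 0.0727% for the remaining basal and subfrontal lobes. A limma fit with voom weights on the recovered reads was added after the tables were seen. It called the subvertical lobe for Sp38 (4.80 ± 1.05, adjusted p 0.0101) and the stellate ganglion for Sp12 (-4.01 ± 1.24, adjusted p 0.0421). The stellate ganglion had 5 reads of Sp12 in all. Stellate ganglion 1, set apart above, had 0 of them in a library of 5193692 reads. The voom fit was not repeated without that library, and its share of genes called for these regions is not given here. The vertical lobe was called for Sp12 with median ratio scaling (-1.89 ± 0.63, adjusted p 0.0481 in limma) and without deep medulla 1 (-1.89 ± 0.59, adjusted p 0.0357 in limma).

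**Figure D2:**
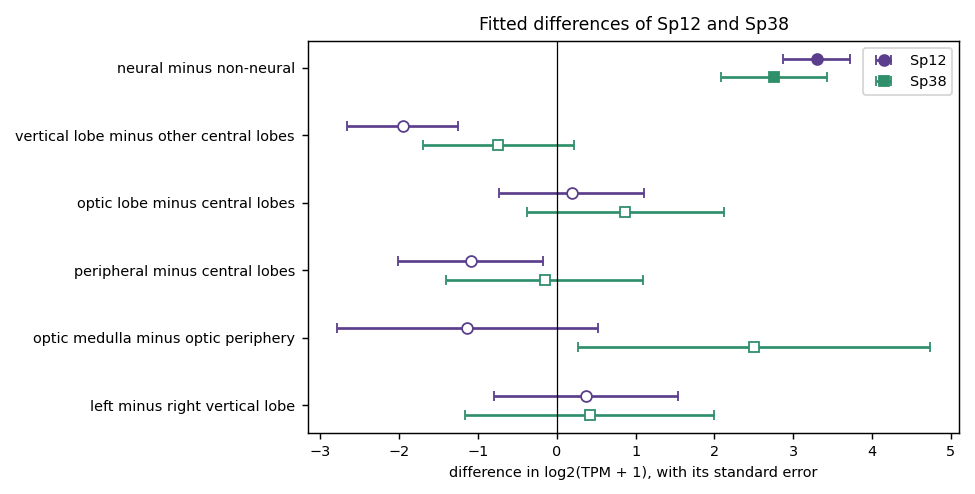
Fitted differences in log2(TPM + 1) for Sp12 (circles) and Sp38 (squares) in 6 comparisons, with bars of 1 standard error. Filled symbols passed the test and open symbols did not. Neural minus non-neural tissues (3.30 for Sp12, 2.76 for Sp38) is the comparison with filled symbols.

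Among the tissues classed here as non-neural, Sp12 was highest on average in the retina, the light-sensing layer of the eye. Its libraries held 50.3, 22.8 and 25.04 TPM on 19, 9 and 2 reads. The arm tip held 25.6 TPM on 10 reads. These 4 libraries were the non-neural ones at 10 TPM or more, and all 4 lay nearer to neural than to non-neural tissues by the index above. All 4 also had fewer than 500000 reads, and of the 27 non-neural libraries with more, 0 reached 10 TPM of Sp12. The part of depth in this was not tested. The posterior salivary gland held 9.15 and 1.12 TPM, and the anterior salivary gland 4.41 and 0.356 TPM. The hectocotylus, the arm that transfers sperm, held 7.5 TPM, the chromatophores 6.70 and 0, the branchial heart auricle 5.46, 1.52 and 0, and the optic gland 3.91 TPM. The mantle (1.06), systemic heart intake (0.575), esophagus (0.454), ova (0.239) and skin (0.177) held 1 or 2 reads each. All 3 libraries of the branchial heart ventricle were at 0, as were the aorta, blood, buccal muscle, gill, large and small sucker, male gonad, systemic heart, its clear vessel and output, and the white body. In these libraries 3 reads would be worth 0.737 to 31.3 TPM.

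The 6 non-neural tissues with 2 or 3 libraries differed in Sp12 (F = 5.26, adjusted p 0.0300 in limma), a result shared by 22.4% of 13024 genes. Retina libraries (4.57 or more on the log2(TPM + 1) scale) lay above those of the next tissue, the posterior salivary gland (3.34 or less). The means of these tissues were 2.77 apart, and the other 4 pairs of neighbours overlapped. The call was narrow. It was lost without any 1 of retina 1, 2 and 3, branchial heart ventricle 1, 2 and 3 and anterior salivary gland 2 (adjusted p 0.0529 to 0.0881 in limma), and with the TPM as deposited, before spike-ins and further transcripts of a gene were dropped and libraries rescaled (adjusted p 0.105 in limma).

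Sp38 had its highest non-neural value in the optic gland, the endocrine gland that controls reproduction, with 523 TPM on 1722 reads. This single library lay nearer to neural tissues by the index above, and whether that bears on the value was not tested. Several parts of the circulatory system followed. The branchial heart auricle held 6.88, 147 and 6.37 TPM, the systemic heart intake 46.4, the systemic heart 29.7 and the aorta 19.1 TPM, on 80, 16 and 28 reads for the last 3. All of these had an index on the non-neural side. In the same libraries Sp12 had 0 to 5.46 TPM. The branchial heart ventricle was lower in Sp38, at 0.959, 3.78 and 2.09 TPM, the clear vessel of the systemic heart held 1.20 TPM, and its output was at 0 in a library of 78088 reads.

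The retina held 104, 7.67 and 0 TPM of Sp38, with a 3-read level of 37.9 TPM at the 0. The chromatophores held 7.503 and 1.91, the male gonad 4.70, the gill 2.83, the esophagus 1.37 and blood 1.23 TPM. The anterior salivary gland (0 and 1.80), posterior salivary gland (0.820 and 0.322), mantle (0.536), large sucker (0.437) and ova (0.362) stayed under 2 TPM. The arm tip, buccal muscle, hectocotylus, skin, small sucker and white body were at 0, with 3 reads worth 0.537 to 22.2 TPM. The 6 tissues with several libraries did not pass the F test for Sp38 (F = 1.71, adjusted p 0.331 in limma), and all 5 pairs of neighbours overlapped.

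Within the nervous system, the high values of Sp38 all came from well-sequenced libraries. The 12 neural libraries at 100 TPM or more held at least 1511827 reads, with a median of 2159114, against a median of 330533 in the other 39. Of 29 neural libraries with at least 500000 reads, 12 reached 100 TPM, and of 22 with fewer reads 0 did, the highest being 63.5 TPM. Those 22 libraries held 33 reads of Sp38 together. Sp12 differed from this. Its 5 neural libraries at 100 TPM had a median depth of 352666 reads, and among the shallow libraries 18 of 22 had reads of it. The median of Sp12 was 28.8 TPM in those 22 and 15.9 TPM in the 29 deeper ones. In the 29 deeper neural libraries Sp12 had reads in 27 and Sp38 in 28, and the median of Sp38 was 45.7 TPM. The part that depth plays in the level of either gene was not tested. Of all 18107 neural reads of Sp38, 67.1% came from 4 libraries, and of 1820 reads of Sp12, 45.4% did.

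**Figure D3:**
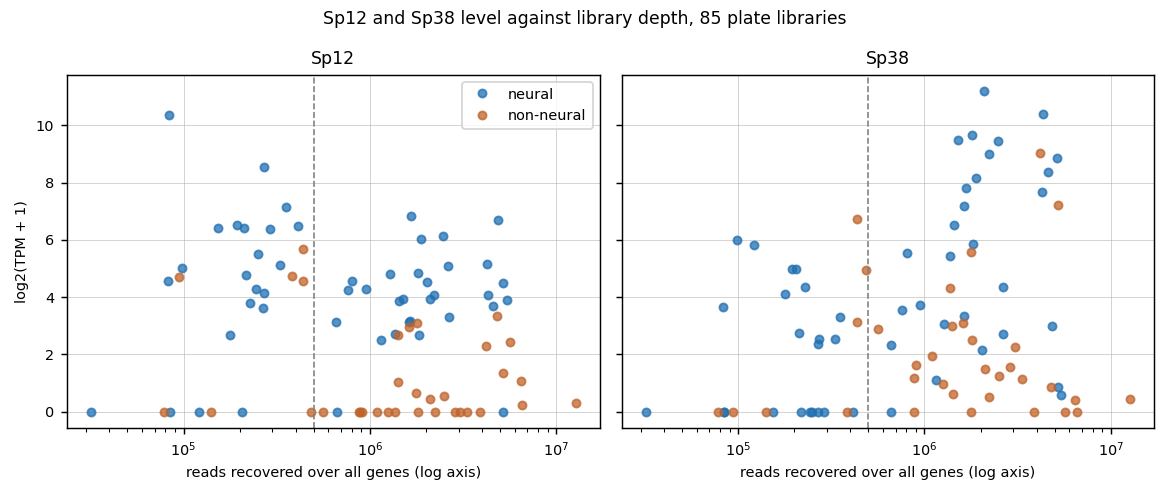
Level of Sp12 (left) and Sp38 (right) as log2(TPM + 1) against the reads recovered over all genes (log axis), 1 point per plate library, with a dashed line at 500000 reads. Neural libraries with Sp38 at 100 TPM or more all stand at 1511827 reads or above, while the neural libraries at 100 TPM or more of Sp12 include 3 left of the dashed line and 2 right of it.

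Many tissue codes in the labels end with a letter A, B or C, whose meaning is not given. Neural libraries at 100 TPM of Sp38 were 2 of 10 with A, 6 of 18 with B, 3 of 17 with C and 1 of 6 with no letter. In the 39 lettered libraries of the neural fit, looked at after the values were seen, the letter gave an adjusted p of 0.936 for Sp12 and 0.807 for Sp38 in limma, and 0.170% of genes passed. Without the libraries set apart, 37 libraries gave 0.954 and 0.948.

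Sp12 and Sp38 were often found in the same library. Of 51 neural libraries, 36 had reads of both, 9 of Sp12 alone, 4 of Sp38 alone and 2 of neither. Of 34 non-neural libraries, 13 had both, 5 Sp12 alone, 12 Sp38 alone and 4 neither. Sp12 was the higher of the pair in 25 neural and 9 non-neural libraries, and Sp38 in 24 and 21. Across the 46 tissue means their Pearson correlation was 0.459, and across the 45 libraries of the neural fit it was -0.013. These values are descriptions, since libraries share depth and tissue classes.

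The balance of the pair, log2(Sp12 + 1) minus log2(Sp38 + 1), was -0.34 ± 2.73 in 21 neural and -0.88 ± 2.56 in 25 non-neural tissue means (SD). The difference of 0.54 gave p = 0.495 in a two-sided permutation test of 100000 assignments. In the vertical lobe the balance was -0.02 ± 3.37 (SD, 15 libraries) and in the other central lobes 1.20 ± 5.04 (SD, 18 libraries), a difference of -1.21 with p = 0.426 in the same permutation test. In the stellate ganglion and arm cord it was 0.08 ± 3.10 (SD, 6 libraries) and in all central lobes 0.64 ± 4.34 (SD, 33 libraries), a difference of -0.56 with p = 0.765 in an exact permutation test over all 3262623 assignments. Adjusted over these 3 tests, the p-values were 0.743, 0.743 and 0.765, so that no shift in balance passed.

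**Figure D4:**
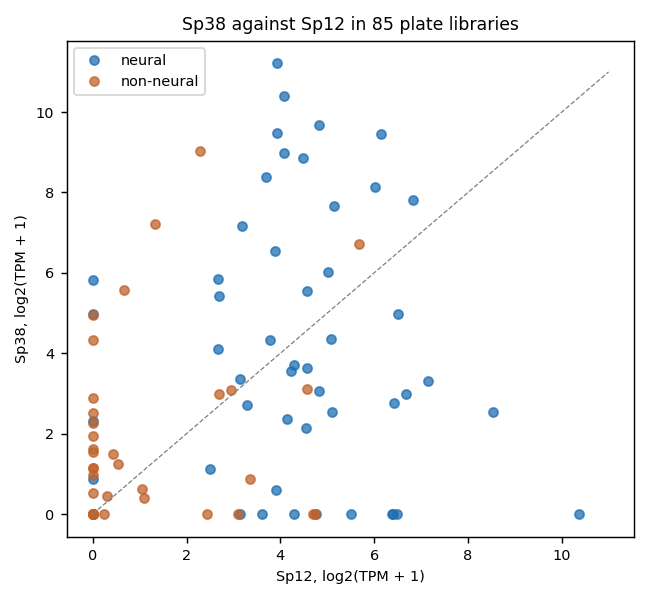
Sp38 against Sp12, both as log2(TPM + 1), in the 85 plate libraries, with a dashed line where both are equal. Neural points lie on both sides of the line (25 with Sp12 higher, 24 with Sp38 higher), and libraries with Sp38 above 9 on this axis have Sp12 at 3.91 to 69.7 TPM.

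The genes whose levels over the 46 tissue means were most like each member were looked up among 12448 genes that reach 10 TPM in some tissue. For Sp12 they were LOC106876926 (Pearson r = 0.887), LOC106877028 (0.886), LOC106881140 (0.875), LOC106874007 (0.866) and LOC106869158 (0.861). Over the 45 neural libraries their correlation with Sp12 was 0.465 to 0.661. For Sp38 they were LOC106870902 (r = 0.831), LOC106871453 (0.796), LOC106873950 (0.774), LOC106873727 (0.769) and GeneID:106870765 (0.762), with 0.488 to 0.724 over the neural libraries. The lists share no gene. LOC106870902 and LOC106871453 had their highest mean in the subvertical lobe, as Sp38 did. Sp38 stood in place 1846 in the order for Sp12, and Sp12 in place 1263 in the order for Sp38. The sources used here give these IDs no product name, and libraries that are shared between genes make their values dependent.

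The tables hold 16 other entries with a name of their own, among them peptide and insulin names. Of these, 9 were listed at 0 in all 85 plate libraries, among them Sp28 and Sp31, the other entries with an Sp name, and 7 were tested. Sp31 had reads in 2 libraries of the second table. In the comparison of neural with non-neural tissues 4 of the 7 were called higher (Betsin, IRELamide2, GNRH and VLPep3) and 0 lower, against 19.0% and 5.21% of all genes, with a median difference of 1.36, against a median of 0.15 over all genes. Sp12 and Sp38 thus had larger differences than that median. In the vertical lobe against the other central lobes 2 of the 7 were called lower (GNRH, -3.28, and VLPep3, -5.02), against 2.10% of all genes called lower, and both were also called without the libraries set apart. Of these 7 entries, 6 were compared with Sp38 over the tissue means, and Betsin was nearest (r = 0.633, place 134), ahead of Insulin1 (r = 0.608, place 213) and VLPep3 (r = 0.579, place 325).

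The second table gives 1 library per sample, except for 2 of the whole vertical lobe, and was scaled apart from the plate, so its values are given with their rank among genes and with no test. Both genes were present in 4 of the 5 libraries of whole tissue. Sp12 stood at 30.2 TPM in the brachial ganglion (rank 3722), 26.3 TPM in the stellate ganglion (rank 2946), and 18.9 and 34.4 TPM in the whole vertical lobe (ranks 4643 and 2331). Sp38 was among the most abundant genes of the whole vertical lobe, at 796 and 3113 TPM (ranks 173 and 32), and of the stellate ganglion, at 1130 TPM (rank 167). In the brachial ganglion it held 175 TPM (rank 1018). The medial superior frontal lobe was at 0 for both genes in a library of 13101232 reads, where 3 reads would be worth 0.342 TPM of Sp12 and 0.345 TPM of Sp38, and 5 of the 17 named entries of this table had reads there. Plate tissues of like name differed from this in places. The plate superior frontal lobe held Sp12 at 22.3 to 141 TPM, and the plate stellate ganglion held Sp38 at 0 to 16.2 TPM. Sp12 was closer in the vertical lobe, at 0 to 33.4 TPM in the plate. Sp38 was not: its median in the plate vertical lobe was 3.96 TPM (range 0 to 1354), and 3 of 15 libraries reached 100 TPM. The cause of these differences was not tested.

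The single neurons differed in which of the pair they held. The stellate ganglion neuron and the deep medulla neuron held Sp12 at 395 and 394 TPM (ranks 395 and 286) and Sp38 at 0 and 9.46 TPM, the first with a 3-read level of 13.01 TPM and the last on 1 read. The periphery neuron of the optic lobe held Sp12 at 93.6 TPM on 6 reads and Sp38 at 0, with a 3-read level of 47.2 TPM. The large efferent neuron of the vertical lobe held both, Sp12 at 122 TPM (rank 1610) and Sp38 at 718 TPM (rank 237). The amacrine neuron of the vertical lobe was at 0 for both in 618857 reads, with 3 reads worth 8.63 TPM of Sp12 and 8.70 TPM of Sp38. Each neuron type is a single cell, so these values have no replicate.

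**Figure D5:**
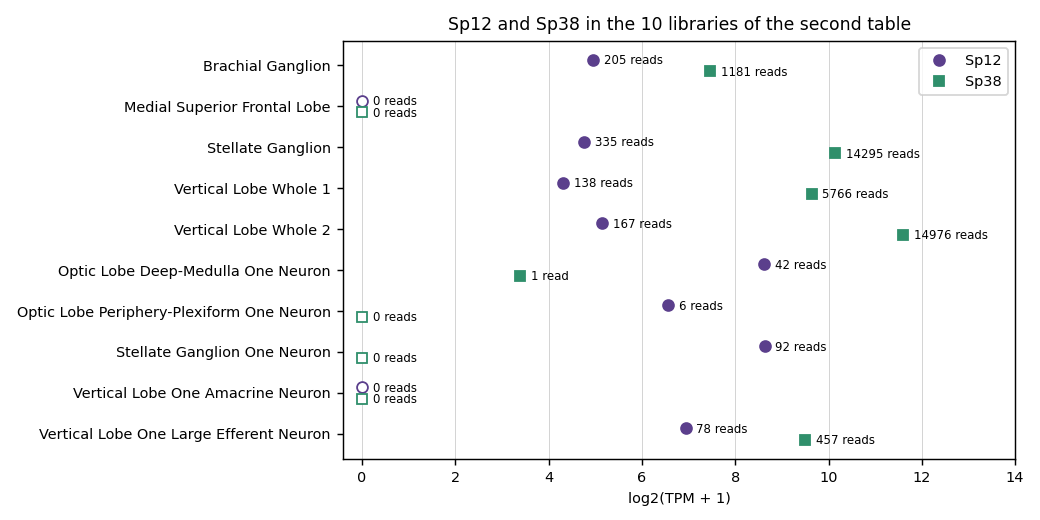
Level of Sp12 (circles) and Sp38 (squares) as log2(TPM + 1) in the 10 libraries of the second table, whole tissues above and single neurons below, with the reads behind each value beside it and open symbols at 0. The large efferent neuron shows both genes (78 and 457 reads), and the stellate ganglion neuron shows Sp12 with 92 reads and Sp38 with 0.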

How the data were processed

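RNA was extracted from whole tissue, or single neurons were taken straight to cDNA, and NEBNext Ultra kits (I or II) gave the libraries, per the labels' protocols. The deposited values are TPM, which sum to a fixed total in each library including 92 spike-ins. The tools were Trimmomatic 0.32, STAR 2.3, featureCounts and edgeR 3.14.0, per the submitters' processing notes, and neither their settings nor a genome build is stated there.

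From the deposited TPM, spike-ins were dropped, 1 transcript per gene was kept (the one with the highest plate mean) and libraries were rescaled. Reads were recovered for 15110 genes: of values below 100 reads, 100% in the plate and 99.9933% in the second table were whole to within 0.05. Plate depth was 31932 to 12717246 reads (median 1364593) and second-table depth 143957 to 13193975. All libraries of both tables were mapped to a tissue by their titles. limma 3.58.1 in R 4.3.3 with a mean-variance trend was run on log2(TPM + 1), which understates the change of low genes, keeping genes that reached 1 TPM in 3 or more libraries (2 in the non-neural fit), with Benjamini-Hochberg adjustment over all genes tested. The class fit used tissue means. The fits were tested on simulated data. Permutation tests used Python 3.11.15 and SciPy 1.17.1; where a side had 6 libraries every assignment was enumerated in place of the 100000 draws planned. Genes were named by rule: both members, the other entries with a name of their own, and the 5 genes most correlated with each member. Gene IDs were matched to the RefSeq gene table of assembly ASM119413v2 for 15476 of 17527 IDs. Sp12, Sp38, the lists and the libraries set apart were chosen with earlier results of these data known. Alternatives covered the pseudocount, filter, scaling, transcripts, libraries left out, label styles, blocks and, added after the tables were seen, voom, a depth limit, the lettered libraries without the letter block and further fits without the libraries set apart.

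Libraries of different tissues that share a replicate number did not deviate together on average: of 315 such pairs 104 had a correlation of residuals over 0.1, with a mean of -0.006. The numbers were therefore not treated as pairs. Libraries of different tissues that share a letter had a mean correlation of 0.039, and those with different letters -0.020.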

Additional observations from a re-analysis of the deposited data

Results flagged for a closer look

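No comparison used the second table, and reads of both genes stood in it above the limit of 3 reads that a count of 0 allows. Sp12 had 205 reads in the brachial ganglion, 335 in the stellate ganglion and 138 and 167 in the whole vertical lobe. Among single neurons it had 92 reads in the stellate ganglion neuron, 42 in the deep medulla neuron, 78 in the large efferent neuron and 6 in the periphery neuron. Sp38 had 1181 reads in the brachial ganglion, 14295 in the stellate ganglion and 5766 and 14976 in the whole vertical lobe, and 457 reads in the large efferent neuron. The table has no sample outside the nervous system, so none of these values stands beside a control.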

How the results depend on the processing

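The neural minus non-neural calls of Sp12 and Sp38 kept their direction and their side of the threshold in 13 alternatives (2.22 to 3.84 for Sp12, 2.07 to 3.48 for Sp38) and without each library in turn (3.20 to 3.45 and 2.51 to 3.06). The median difference of all genes was 0.15, against -0.02 with the TPM as deposited (spike-ins and further transcripts included, no rescaling), -0.07 with quantile and -0.16 with median ratio scaling. It was 0.42 in libraries with at least 500000 reads. The F test of Sp12 over non-neural tissues fell to 3.41 with the TPM as deposited, and was 3.54 to 7.13 without each library. Regions called against the other 10 came to 1 for Sp12 with median ratio scaling and 1 for each gene with voom, and 0 to 1 for Sp12 without each library. Differences that did not pass changed sign in places, and the cause was not tested. The optic minus central difference was -0.039 for Sp12 with quantile scaling and -0.013 for Sp38 with the TPM as deposited. The peripheral minus central difference of Sp12 was 0.49 within the 4-digit style. The medulla minus periphery difference of Sp12 was 0.21 with voom and 2.73 at 500000 reads or more. The left minus right difference without the 5 libraries set apart was -0.31 for Sp12 and -0.67 for Sp38, and with the lettered libraries, with or without the letter block, -0.13 and -0.79. Without each library in turn, optic minus central ran from -0.55 to 1.30 for Sp12, medulla minus periphery from -2.36 to 1.09 for Sp12, left minus right from -0.38 to 1.11 for Sp12 and from -0.72 to 1.88 for Sp38, and peripheral minus central from -0.76 to 0.57 for Sp38.

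The replicate number used as a block changed no call: the F test over neural tissues was 1.52 for Sp12 and 2.11 for Sp38, and that over non-neural tissues 7.73 for Sp12. Libraries that share a number showed no pairing on average. Precision is limited by reads: Sp12 had 1 to 3 reads in 12 plate libraries and Sp38 in 23.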
